A study of Mus musculus with 96 samples.

Results

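The genes described here are 6 acyl-CoA synthetases, Acsl3, Acsl4, Acsl5, Acsl6, Acss2 and Acss3, taken by symbol from the 21990 genes of an RNA-sequencing table. They were followed in islets and liver of the same 48 male C57BL/6N mice, bought at 4 weeks of age and fed either a high-fat diet (HFD, Research Diets D12492, 60% fat) or a chow diet (CD, LabDiet 5001, 13.5% fat). Each of the 2 tissues was taken from 4 HFD and 4 CD mice after 4, 8, 12, 16, 20 and 24 weeks on diet, which gave 24 groups and 96 libraries. Every mouse was measured once, so that the weeks are different animals, and time on diet, age and any batch of a week cannot be told apart. HFD and CD are products of different makers and not one recipe at 2 fat contents, so the fat content and the other ingredients cannot be told apart either. Levels are in FPKM, the fragments of a gene per kilobase of transcript and per 1000000 mapped fragments, as deposited.

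Acyl-CoA synthetases join a fatty acid to coenzyme A, the step that traps it in the cell and opens its way to storage, oxidation or membrane lipids. The ACSL enzymes act on long chains: ACSL3 sits on the endoplasmic reticulum and on lipid droplets, ACSL4 prefers arachidonate and other polyunsaturated fatty acids, ACSL5 is abundant in liver and intestine, and ACSL6 is best known from brain, where it handles docosahexaenoate. ACSS2 makes acetyl-CoA from acetate in cytosol and nucleus and is a target of the sterol regulatory element binding proteins, while ACSS3 is a mitochondrial enzyme that prefers propionate.

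In the table, on mouse build GRCm38, Acsl3 (gene ID 74205) spans chr1:78657825-78707743 on the plus strand and Acsl4 (50790) spans chrX:142317993-142390800 on the minus strand. Acsl5 (433256) lies at chr19:55251887-55296628, Acsl6 (216739) at chr11:54303824-54364756 and Acss2 (60525) at chr2:155517953-155562746, each on the plus strand, and Acss3 (380660) at chr10:106936164-107123664 on the minus strand. Acsl3 shares its start and 9777 bases with Utp14b on the same strand. Utp14b was listed at a median of 0.635 FPKM in islets and 0.48 FPKM in liver, so that reads of the shared stretch could go to either gene.

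Promoters are shown for Acss2, whose mean HFD differences had opposite signs in the 2 tissues, and for the 3 ACSL genes that were measured in both tissues. They are RefSeq sequences on GRCm38.p6, from 250 bases before to 50 bases after the transcription start, 5′ to 3′ on the strand of the gene, and capitals mark a CCAAT box on either strand. The windows are chr2:155517793-155518092 for Acss2, chr1:78657575-78657874 for Acsl3, chrX:142390486-142390785 for Acsl4 and chr19:55253119-55253418 for Acsl5. Each window belongs to a single annotated start, and other starts of these genes were not searched. That of Acsl5 lies inside the span of the gene, which begins at 55251887.

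Acss2: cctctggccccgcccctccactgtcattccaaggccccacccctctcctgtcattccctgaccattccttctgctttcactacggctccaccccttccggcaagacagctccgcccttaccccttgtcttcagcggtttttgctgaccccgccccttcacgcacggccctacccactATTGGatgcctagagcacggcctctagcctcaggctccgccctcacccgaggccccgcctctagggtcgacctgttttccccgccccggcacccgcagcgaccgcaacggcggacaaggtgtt

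Acsl3: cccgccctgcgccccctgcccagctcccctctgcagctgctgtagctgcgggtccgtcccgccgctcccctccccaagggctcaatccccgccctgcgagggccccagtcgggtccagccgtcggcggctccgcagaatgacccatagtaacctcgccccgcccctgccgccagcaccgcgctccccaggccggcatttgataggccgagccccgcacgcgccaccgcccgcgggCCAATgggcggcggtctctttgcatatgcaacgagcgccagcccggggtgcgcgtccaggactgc

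Acsl4: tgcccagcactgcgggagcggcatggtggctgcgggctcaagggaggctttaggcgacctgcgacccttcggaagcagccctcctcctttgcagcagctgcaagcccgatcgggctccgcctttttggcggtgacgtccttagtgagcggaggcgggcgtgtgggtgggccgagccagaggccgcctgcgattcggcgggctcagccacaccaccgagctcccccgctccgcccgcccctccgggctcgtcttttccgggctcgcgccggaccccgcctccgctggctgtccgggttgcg

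Acsl5: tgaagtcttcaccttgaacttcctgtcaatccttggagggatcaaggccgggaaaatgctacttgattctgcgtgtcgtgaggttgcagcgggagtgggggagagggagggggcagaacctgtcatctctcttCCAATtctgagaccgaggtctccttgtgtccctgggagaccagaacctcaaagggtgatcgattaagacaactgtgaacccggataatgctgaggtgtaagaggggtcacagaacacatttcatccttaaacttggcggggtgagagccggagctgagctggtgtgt

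The CCAAT box (CCAAT) was found at -73 on the minus strand of Acss2, at -15 of Acsl3 and at -117 of Acsl5, counted in bases from the start site to the left end of the match, while Acsl4 held none; 37.4% of the 32851 promoters of the same length held it. The sterol regulatory element searched (TCACNCCAC, held by 1.24% of promoters) and the E box CACGTG (7.15%) had no match in these windows on either strand. The nuclear receptor element AGGTCA (16.3% of promoters) was found in 1 of the 3 Acsl6 promoters, with 2 matches, and in none of the 4 shown. The Acsl3, Acsl4 and Acss2 windows held 74%, 71.7% and 65% G and C, and the Acsl5 window held 53%, beside a median of 52.7% over all promoters.

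The labelled tissues matched their markers. The summed level of 8 hepatocyte genes was 33179 to 74189 FPKM in liver and 246 to 1064 FPKM in islets, and the 2 insulin genes made up 53.7% to 75.1% of the summed FPKM in islets. In liver this share was 0.556% at the most, in mouse CD306 of week 12. Insulin took 64.3% ± 4.45 (SD, n = 24) of the islet sum in CD and 68.7% ± 3.40 in HFD. The summed FPKM ranged from 892097 to 1278650 in islets and from 560016 to 672369 in liver. No read counts are used here, so the depth behind a value is unknown.

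Acsl5 and Acss2 led in both tissues, and Acsl6 and Acss3 were each near 0 in one of them. In islets Acsl5 led with a median of 16.0 FPKM in CD, followed by Acss2 at 12.5, Acsl4 at 7.80, Acsl6 at 6.54 and Acsl3 at 2.83 FPKM. In liver Acsl5 led as well, at a median of 92.7 FPKM in CD, followed by Acss2 at 40.1, Acsl4 at 4.85, Acsl3 at 4.22 and Acss3 at 1.82 FPKM. Acsl6 never reached 1 FPKM in liver (0 to 0.21 FPKM), and Acss3 never reached 1 FPKM in islets (0 to 0.16 FPKM).

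**Figure D1:**
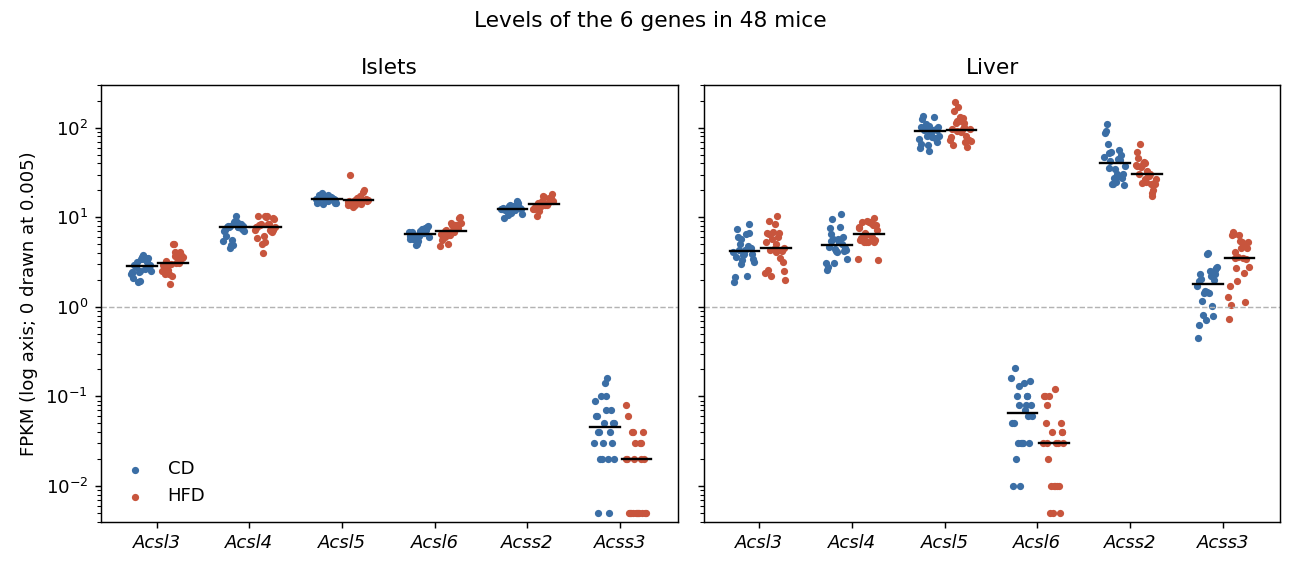
Levels of the 6 genes in FPKM on a log axis, 1 point per mouse, 24 CD mice in blue and 24 HFD mice in red, with black bars at the medians and values of 0 drawn at 0.005. Acsl6 stayed below 1 FPKM (dashed line) in all 48 livers, and Acss3 in all 48 islet samples.

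Some neighbours in this order kept their places in every library, while others did not. In CD islets Acsl5 was above Acss2 in 24 of 24 libraries, but in HFD islets in 17 of 24. Acsl4 was above Acsl6 in 18 of 24 CD and 13 of 24 HFD islet libraries, so these neighbours did not separate beyond their spread. Acsl3, the lowest of the 5 genes measured in islets, was below Acsl6 in all 48 libraries. In liver Acsl5 was above Acss2 in 21 of 24 CD and 24 of 24 HFD libraries, and Acsl4 was above Acsl3 in 20 of 24 and 19 of 24. Acss3 came close to Acsl3 in HFD liver, where it was the lower of the 2 in 17 of 24 libraries, against 23 of 24 in CD.

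Liver and islets of the same mouse were compared on the log2(FPKM + 1) scale as within-mouse differences, which asks how far the tissues differ once the animal is held constant. Nearly every gene differed between the tissues, 95.2% of 13346 in CD and 94.5% in HFD at an adjusted p under 0.05, so that a call says little by itself and the size is what matters. All 6 genes were called in both diets. Acsl5 was higher in liver by 2.38 ± 0.07 (log2 difference ± SE, n = 24 mice) in CD and by 2.54 ± 0.07 in HFD. Acss2 was higher in liver by 1.64 ± 0.09 in CD and by 1.07 ± 0.09 in HFD. Acss3 was higher in liver by 1.36 ± 0.08 in CD and by 2.09 ± 0.08 in HFD, and Acsl6 lower by -2.80 ± 0.03 and -2.96 ± 0.03. The smallest differences were those of Acsl3, at 0.46 ± 0.09 and 0.44 ± 0.09, and of Acsl4, at -0.47 ± 0.07 and -0.19 ± 0.07. These rest on how the 2 tissues are scaled against each other. With median ratio scaling over all 96 libraries, Acsl4 became higher in liver (0.18 in CD and 0.34 in HFD). With Ins1 and Ins2 left out of the islet totals, Acsl3 became lower in liver (-0.77 and -0.98) and so did Acss2 in HFD (-0.55).

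The main question was how each gene differed between HFD and CD, taken first as the mean of the 6 weekly differences in each tissue. In liver Acss3 and Acsl4 were higher and Acss2 lower in HFD, while in islets Acss2, Acsl3 and Acsl6 were slightly higher. Over all genes tested, 42.6% of 10879 were called in liver (35.8% higher and 6.78% lower) and 38.6% of 12378 in islets (16.6% higher and 22.0% lower), and the median of all genes was 0.077 in liver and -0.0091 in islets. Of the 5 synthetases tested in each tissue 3 were called. In liver Acss2 was on the less common, lower side, and Acss3 and Acsl4 on the more common one. The split between higher and lower calls depends on the scaling: 43.1% of the called islet genes were higher as deposited, 59.7% with median ratio scaling, 86.9% without the insulin genes in the total and 7.97% with FPKM divided by the library sum. In liver the share was 84.1%, 45.1% with median ratio scaling and 89.8% with division by the sum.

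**Figure D2:**
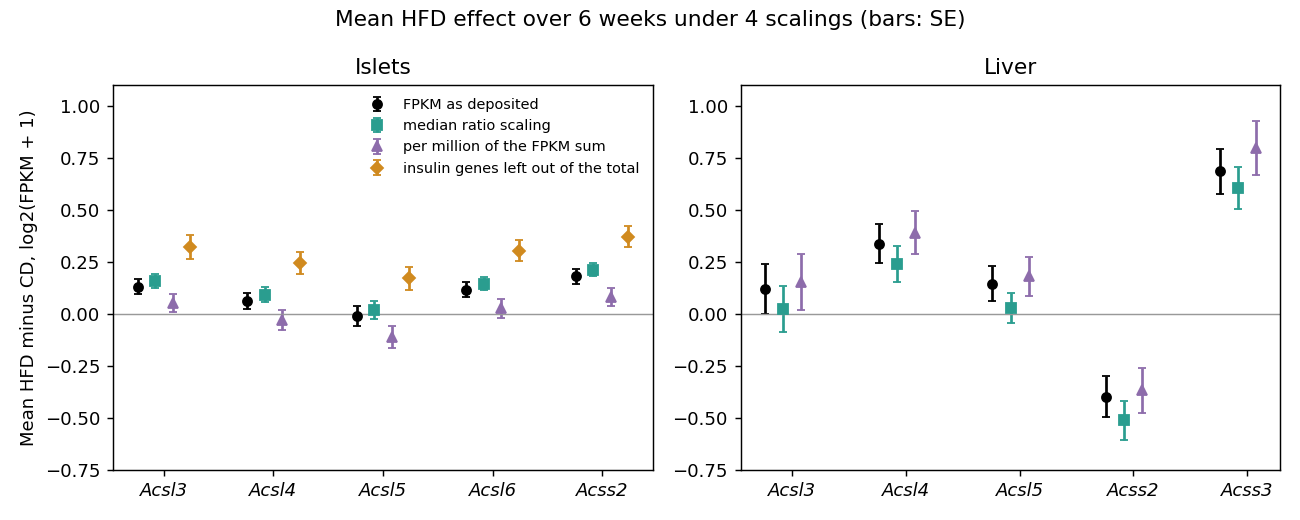
Mean HFD minus CD difference over 6 weeks on the log2(FPKM + 1) scale for the 5 genes tested in each tissue, with SE bars, under 4 ways of scaling the libraries (3 in liver). In liver Acss3 and Acsl4 lie above 0 and Acss2 below 0 in each scaling; in islets the values of all 5 genes move together with the scaling.

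Acss3 had the largest difference of the 6 genes. In liver it ranged from 0.45 to 3.98 FPKM with a median of 1.82 in the 24 CD mice, and from 0.74 to 6.87 FPKM with a median of 3.53 in the 24 HFD mice, so the groups overlapped. The mean difference was 0.68 ± 0.11 (SE), with a 95% interval of 0.47 to 0.90 (limma adjusted p = 2.49e-06). At week 4 it had not parted: the CD mice had 0.45, 0.62, 1.72 and 1.92 FPKM and the HFD mice 0.74, 1.05, 1.29 and 1.72 FPKM. At week 8 the CD mice had 0.82, 1.17, 2.05 and 2.33 FPKM and the HFD mice 3.47, 6.31, 6.50 and 6.87 FPKM. No HFD mouse was then as low as any CD mouse, the ratio of the means was 3.63, and the log2 difference was 1.40 ± 0.24 (adjusted p = 0.0120), where 7.49% of the genes tested in liver were called. At week 12 the CD mice had 0.71, 1.42, 1.46 and 1.51 FPKM and the HFD mice 1.93, 2.69, 3.56 and 4.05 FPKM, again apart (log2 difference 0.82 ± 0.18, adjusted p = 0.0271, 10.6% of genes called). This call was lost without CD307, CD308, HFD313, HFD315 or HFD318 (adjusted p up to 0.0775).

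In the later weeks Acss3 stayed higher in HFD liver in its mean, but no single week passed the test. At week 16 the CD mice had 1.41, 2.49, 3.84 and 3.98 FPKM and the HFD mice 4.58, 5.28, 5.42 and 6.38 FPKM, without overlap (0.76 ± 0.22, adjusted p = 0.0709, 7.43% of genes called). At week 20 the groups overlapped, with 0.80 to 2.20 FPKM in CD and 1.14 to 4.74 in HFD (0.61 ± 0.31, adjusted p = 0.407, 2.47% of genes called). At week 24 they were just apart, with 2.30 to 2.77 FPKM in CD and 2.82 to 5.34 in HFD (0.46 ± 0.15, adjusted p = 0.188, 0.837% of genes called).

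Acss2, the acetate enzyme, went the other way in liver. It ranged from 23.1 to 110 FPKM with a median of 40.1 in CD and from 17.1 to 65.6 FPKM with a median of 30.4 in HFD, and its mean difference was -0.40 ± 0.10 with a 95% interval of -0.60 to -0.20 (adjusted p = 0.00146). The largest differences were at 2 of the 6 weeks. At week 4 the CD mice had 46.8, 86.9, 92.8 and 110 FPKM and the HFD mice 37.4, 38.4, 45.9 and 54.1 FPKM. Only the lowest CD mouse fell within the HFD range, and the log2 difference was -0.87 ± 0.25 (adjusted p = 0.218), in a week where 0.0506% of genes were called. Without that mouse, CD101, the week was called (-1.13, adjusted p = 0.0252). At week 20 the CD mice had 43.5, 45.2, 49.8 and 56.5 FPKM and the HFD mice 17.1, 18.7, 23.7 and 30.7 FPKM. Every HFD mouse was then below every CD mouse, at a ratio of the means of 0.462 (-1.11 ± 0.17, adjusted p = 0.0132).

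In the remaining weeks Acss2 overlapped between the diets in liver. The log2 difference was -0.38 ± 0.30 at week 8 and 0.27 ± 0.26 at week 12. Week 16 gave -0.0069 ± 0.12 and week 24 gave -0.30 ± 0.15. At week 12 the CD mouse CD304 had 53.6 FPKM beside 23.5 to 27.2 FPKM in the other 3, and without it Acss2 would be called higher in HFD (0.54, adjusted p = 0.0350). A test of whether the HFD effect differed between weeks called none of the 5 synthetases in liver by limma, where 1.46% of genes were called. At an unadjusted p under 0.05 it held for Acss2, Acsl5 and Acss3, beside 1606 of all 10879 genes tested in liver. The adjusted p of Acss2 was 0.0914. The test for Acss2 passed without CD101, CD304 or HFD212 (adjusted p down to 0.0158).

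**Figure D3:**
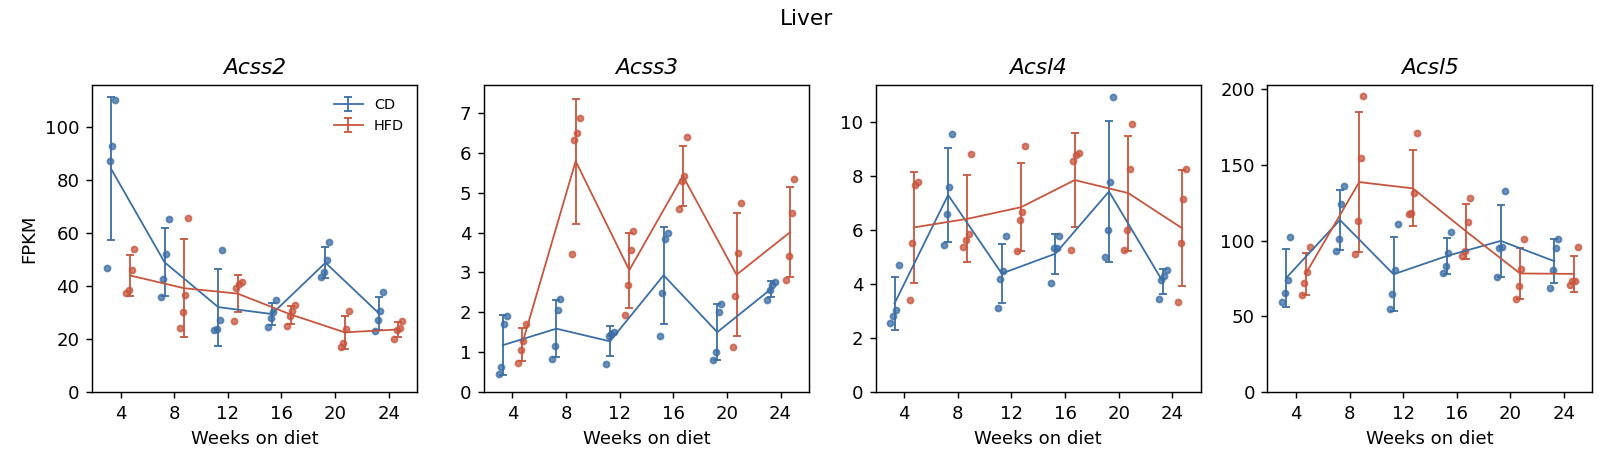
Liver FPKM of Acss2, Acss3, Acsl4 and Acsl5 by weeks on diet, 1 point per mouse, with lines through the means and SD bars (n = 4 mice) for CD in blue and HFD in red. The mean of Acss3 is higher in HFD from week 8 on, and Acss2 in CD falls from a mean of 84.1 FPKM at week 4 to 29.4 FPKM at week 16.

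Acsl4, the arachidonate enzyme, ranged from 2.55 to 10.9 FPKM (median 4.85) in CD liver and from 3.32 to 9.91 FPKM (median 6.51) in HFD liver. Its mean difference was 0.34 ± 0.09, with a 95% interval of 0.15 to 0.53 (adjusted p = 0.00368), although no week was called. The widest gap was at week 4, with 2.55, 2.81, 3.05 and 4.71 FPKM in CD and 3.42, 5.53, 7.64 and 7.76 FPKM in HFD (0.70 ± 0.24, adjusted p = 0.277). At week 16 the CD mice had 4.05, 5.32, 5.33 and 5.77 FPKM and the HFD mice 5.25, 8.53, 8.75 and 8.82 FPKM. Only HFD411 lay within the CD range, and without it the week 16 difference was called (0.67, adjusted p = 0.00485, against 0.51 and 0.0833 with it). At week 12 the difference was 0.54 ± 0.18 (adjusted p = 0.0725), and it was called without CD304 (0.66, adjusted p = 0.0252). At week 8 and week 20 the differences were -0.16 ± 0.18 and 0.0041 ± 0.24.

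Acsl4 is also expressed by cells other than hepatocytes, and markers of some of those cells differed between the diets in liver. By the same mean difference test 35.8% of all genes were higher in HFD liver. Of the 8 macrophage and Kupffer cell markers 7 were higher, and so were all 7 stellate cell and fibroblast markers. Their summed levels were 54.6 to 179 FPKM in CD and 72.9 to 324 FPKM in HFD for the former, and 29.1 to 94.8 and 52.5 to 147 FPKM for the latter. No gene of either list was at a median of 0 in liver. Other cell types moved less: 1 of 6 endothelial markers and 1 of 3 duct markers tested were higher and none lower. The 1 lymphocyte marker tested was not called. Of the 8 hepatocyte markers 3 were lower and none higher, beside 6.78% of all genes lower. These marker calls are those of the FPKM as deposited, and with other scalings they were not computed. In bulk tissue, more cells of a type and more RNA per cell cannot be told apart, and the part of these cells in the differences of Acsl4, Acss2 and Acss3 was not tested.

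Acsl5, the most abundant of the 6 genes, had a mean difference in liver of 0.14 ± 0.08 with a 95% interval of -0.027 to 0.32 (adjusted p = 0.173). The weekly values differed in sign. At week 12 the CD mice had 55.1, 64.6, 80.5 and 111 FPKM and the HFD mice 117.4, 118.5, 131.1 and 170.8 FPKM, without overlap (0.81 ± 0.21, adjusted p = 0.0399). Leaving out CD304 lowered the adjusted p to 0.00601, while leaving out any 1 of the other 7 mice (0.0503 to 0.117) or the filter on low values (0.0649) ended the call. At week 20 the means were 99.8 FPKM in CD and 78.3 FPKM in HFD (-0.34 ± 0.19, adjusted p = 0.451), and at week 24 86.4 and 78.1 FPKM (-0.14 ± 0.15). The change of the HFD effect between weeks was not called for liver Acsl5 (adjusted p = 0.151) but passed without CD304 (0.0457). Acsl3 had a mean difference in liver of 0.12 ± 0.12 (-0.13 to 0.36) and no called week. Its weekly values ran from -0.32 ± 0.21 at week 20 to 0.57 ± 0.20 at week 12, the latter with an adjusted p of 0.0890, or 0.0198 without CD304.

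In islets the differences were smaller and lay close together. Acss2 ranged from 9.88 to 15.1 FPKM (median 12.5) in CD and from 10.2 to 18.3 FPKM (median 14.0) in HFD, with a mean difference of 0.18 ± 0.03 and a 95% interval of 0.11 to 0.25 (adjusted p = 7.16e-05). Acsl3 was higher by 0.13 ± 0.04 (0.054 to 0.21, adjusted p = 0.00567) and Acsl6 by 0.12 ± 0.04 (0.041 to 0.19, adjusted p = 0.0121). Acsl4 at 0.060 ± 0.039 (-0.018 to 0.14) and Acsl5 at -0.013 ± 0.048 (-0.11 to 0.083) were not called.

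These islet values depend on how the libraries are scaled. With FPKM divided by the library sum none of the 5 genes was called, since the differences of Acss2, Acsl3 and Acsl6 became 0.081, 0.052 and 0.026. With median ratio scaling Acsl4 was called as well (0.091, adjusted p = 0.0322), which made 4. With the insulin genes left out of the total all 5 were called higher, Acss2 by 0.37 and Acsl5 by 0.17. The median of all genes moved along, to -0.097 with division by the sum and 0.15 without the insulin genes. Set against that median, Acss2 was 0.19 above it as deposited and 0.18 and 0.22 above it in these 2 scalings, Acsl3 0.14, 0.15 and 0.17, and Acsl6 0.12, 0.12 and 0.15. In the same samples, as deposited, 22.0% of all genes were lower and 16.6% higher in HFD. All 4 alpha cell markers, both delta cell markers and 5 of 8 acinar markers were lower in HFD. The summed alpha markers were 6693 to 15057 FPKM in CD and 955 to 14306 FPKM in HFD, the delta markers 2117 to 4757 and 322 to 3919, and the acinar markers 5718 to 136786 and 3613 to 46000. Of the 7 beta cell markers 4 were higher and 2 lower, and all 4 red blood cell markers were higher, at 69.5 to 296 FPKM in CD and 85.0 to 832 in HFD. The marker calls are those of the FPKM as deposited and were not computed with the other scalings. The part of these marker shifts in the islet differences was not tested.

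Week by week, the islet difference of Acss2 was largest at weeks 16 and 24 and lay between -0.0028 at week 8 and 0.21 at week 12 in the other 4. At week 4 the values were 9.88, 12.2, 12.4 and 12.7 FPKM in CD and 12.5, 12.5, 12.7 and 12.9 FPKM in HFD (0.097 ± 0.082), in a week where 0% of genes were called. At week 16 they were 11.7, 12.2, 13.1 and 13.3 FPKM in CD and 13.8, 13.9, 17.0 and 17.3 FPKM in HFD, apart but not called (0.27 ± 0.08, adjusted p = 0.0606, 8.45% of genes called). Without HFD418 or with median ratio scaling that week was called (adjusted p = 0.0405 and 0.0251). At week 24 they were 10.8, 12.4, 12.6 and 12.7 FPKM in CD and 15.1, 15.8, 16.4 and 18.3 FPKM in HFD. All 4 HFD mice were above all 4 CD mice, the ratio of the means was 1.35, and the difference of 0.41 ± 0.09 was called (adjusted p = 0.00770, 8.30% of genes called). It held without any 1 of the 8 mice, but not with FPKM divided by the library sum (0.42, adjusted p = 0.0864). No HFD effect on the 5 synthetases tested in islets differed between weeks by limma, where 4.25% of genes were called. At an unadjusted p under 0.05 only Acss2 of the 5 did (adjusted p = 0.146), beside 2774 of all 12378 genes tested in islets.

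**Figure D4:**
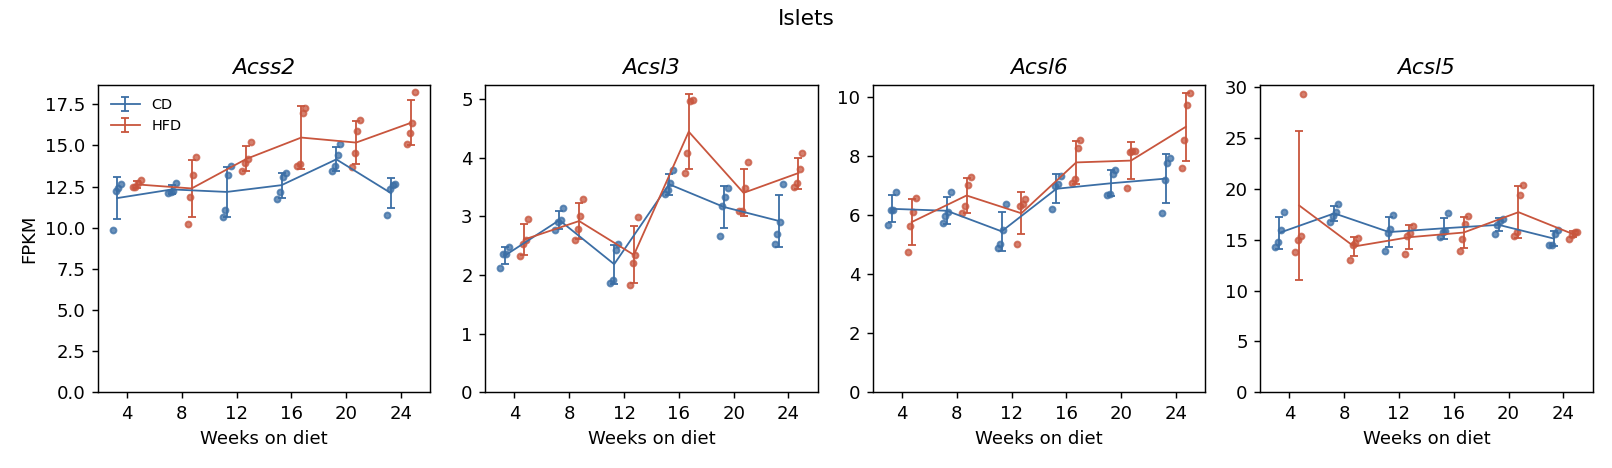
Islet FPKM of Acss2, Acsl3, Acsl6 and Acsl5 by weeks on diet, drawn as for liver, with 1 point per mouse, means and SD bars (n = 4 mice). At week 24 the 4 HFD mice lie at 15.1 to 18.3 FPKM for Acss2, above the 4 CD mice at 10.8 to 12.7 FPKM; 1 HFD mouse of week 4 stands out at 29.3 FPKM for Acsl5.

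Acsl3 and Acsl6 had no called week in islets. At week 24 Acsl3 had 2.53, 2.70, 2.90 and 3.55 FPKM in CD and 3.50, 3.56, 3.80 and 4.08 FPKM in HFD (0.28 ± 0.10, adjusted p = 0.0992). Acsl6 had 6.07, 7.20, 7.76 and 7.92 FPKM in CD and 7.60, 8.53, 9.72 and 10.1 FPKM in HFD at that week (0.28 ± 0.10, adjusted p = 0.109). In each case the ranges overlapped at their edges. Both were called at week 24 in a single fit of 48 libraries (adjusted p = 0.0385 for Acsl3 and 0.0349 for Acsl6), Acsl3 also without CD601 (0.0435) and Acsl6 without HFD611 (0.0392). At week 16 the difference of Acsl3 was 0.25 ± 0.09 (adjusted p = 0.105), and it was called without HFD418 or with median ratio scaling (0.0389 and 0.0359). The earliest weeks showed little: the differences at week 4 and week 8 were 0.11 ± 0.091 and -0.0078 ± 0.085 for Acsl3, and -0.098 ± 0.097 and 0.10 ± 0.08 for Acsl6.

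Acsl5 was the one synthetase tested in islets that was called lower in HFD at a single week. At week 8 the CD mice had 16.8, 17.4, 17.7 and 18.5 FPKM and the HFD mice 13.0, 14.5, 14.7 and 15.1 FPKM, without overlap (-0.28 ± 0.06, adjusted p = 0.0338, 5.27% of genes called). The median of all islet genes that week was -0.11. The call held without CD207 or HFD217 but was lost without any 1 of the other 6 mice (adjusted p up to 0.0938), with median ratio scaling (-0.16, adjusted p = 0.217) and without the insulin genes in the total (-0.17, 0.613). It was also lost with no filter (0.0607), with plain variances (0.0512) and in a single fit of 48 libraries (0.120). At week 12 and week 20, where 4.53% and 4.74% of genes were called, the differences were -0.044 ± 0.11 and 0.090 ± 0.091.

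At week 4 the HFD mouse HFD118 had 29.3 FPKM of Acsl5 in islets beside 13.8, 15.0 and 15.4 FPKM in the other 3. The 3 genes most like Acsl5 over the 48 islet libraries were Slc11a2, which encodes an iron transporter, Mttp, which loads lipid onto lipoproteins, and Ccl25, a gut chemokine, at r = 0.84, 0.71 and 0.69. Without HFD118 these became 0.63, 0.42 and 0.28. In this library Slc11a2 stood at 49.9 FPKM against 6.74 to 15.3 FPKM in the other 47. Further genes of absorptive cells of the small intestine, picked after their values were seen, were high there as well. Apoa4 stood at 192 FPKM against a median of 0.03 and a highest value of 16.2 FPKM, Fabp2 at 41.6 against a highest value of 6.97 FPKM, and Alpi at 62.6 against a highest value of 6.07 FPKM. Their part in the Acsl5 value was not tested; without HFD118 the mean HFD effect on islet Acsl5 was -0.052.

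Acss3 in islets and Acsl6 in liver were listed near 0. Islet Acss3 had a mean of 0.0538 FPKM in CD and 0.0188 FPKM in HFD, with 2 and 11 of 24 libraries at 0. Liver Acsl6 had a mean of 0.0754 and 0.0392 FPKM. Without a filter on low values both were called (-0.048 and -0.049, adjusted p = 0.000123 and 0.0313), but a table rounded to 2 decimals gives these levels in few steps.

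Whether the HFD effect differed between the tissues was tested within mice, where 44.7% of genes were called. Acss2 differed most in this respect among the genes measured in both tissues, with a liver minus islet difference of -0.58 ± 0.12 in the HFD effect (adjusted p = 0.000177). Acsl4 differed by 0.28 ± 0.10 (adjusted p = 0.0207), a call that was lost with median ratio scaling (0.16, adjusted p = 0.173) and without the insulin genes in the total (0.093, 0.519). Acss3 differed by 0.73 ± 0.11 (adjusted p = 5.68e-07) and Acsl6 by -0.16 ± 0.04 (adjusted p = 0.00154, lost with FPKM divided by the library sum, at -0.099 and 0.104), each near 0 in one of the tissues. Acsl3 at -0.013 ± 0.12 (95% interval -0.26 to 0.24) and Acsl5 at 0.16 ± 0.10 (-0.050 to 0.36) were not called. With FPKM divided by the library sum Acsl5 was called (0.29, adjusted p = 0.0252).

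Levels also moved between weeks within each diet. In islets 77.5% of genes in CD and 83.8% in HFD differed between weeks, and 3 and 4 of the 5 tested members did, so their share was not above that of other genes. Acsl4 had its lowest mean at week 12 and its highest at week 16 in both diets, with CD means of 6.50, 7.88, 4.99, 9.35, 7.94 and 7.72 FPKM and HFD means of 7.14, 8.75, 5.12, 9.80, 7.34 and 8.62 FPKM at weeks 4 to 24 (adjusted p = 3.24e-08 and 5.76e-09). The same weeks held the lowest and highest means of Acsl3, at 2.18 and 3.55 FPKM in CD and 2.34 and 4.44 FPKM in HFD. Acsl6 in HFD went from 5.77 FPKM at week 4 to 8.99 FPKM at week 24 (adjusted p = 1.55e-06). Acss2 changed between weeks in HFD (adjusted p = 0.000280) but was not called in CD (0.0955). Both depend on the scaling: without the insulin genes in the total the HFD call of Acss2 was lost (0.0523) and CD was called (0.00919), and with FPKM divided by the library sum CD was called as well (0.00317). Acsl5 was called in neither diet (0.609 in CD and 0.149 in HFD). It was called in HFD without HFD112 or HFD118 (adjusted p = 0.0345 and 0.0240) or with division by the sum (0.0368), and in CD without the insulin genes (0.00822).

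In liver 55.0% of genes in CD and 50.2% in HFD differed between weeks, and 3 of the 5 tested members did in each diet. Acss2 in CD went from 84.1 ± 26.8 FPKM (SD, n = 4) at week 4 in CD to 29.4 ± 4.27 at week 16 and back to 48.7 ± 5.80 at week 20 (adjusted p = 3.56e-05). In HFD it went from 43.9 ± 7.75 FPKM at week 4 to 22.5 ± 6.13 at week 20 (adjusted p = 0.00652). Acss3 in HFD was at 1.20 ± 0.41 FPKM at week 4 and 5.79 ± 1.56 at week 8 (adjusted p = 4.63e-05), and in CD it ran from 1.18 to 2.93 FPKM (adjusted p = 0.0172). Acsl5 changed in HFD, where weeks 8 and 12 had means of 139 and 134 FPKM and the other 4 weeks 78.0 to 105.9 FPKM (adjusted p = 0.000791). Acsl4 changed in CD, from 3.28 FPKM at week 4 to 7.42 at week 20 (adjusted p = 0.00250), but not by the test in HFD (0.619). Acsl3 was called in neither diet (0.0879 in CD and 0.0813 in HFD), though in HFD it was without HFD114, HFD217 or HFD614 (0.0287 to 0.0493). Acsl5 in CD (0.0836) was called without CD106 or CD304 (0.0322 and 0.0235).

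Mice of the same group also differed among themselves, and some of the 6 genes did so together. Correlations were taken over 48 mice after subtracting group means, for 24 pairs, with permutation p-values (100000 permutations within groups) adjusted over the 24. In liver Acsl5 went with Acsl3 at r = 0.63 (Spearman rho = 0.60, adjusted p = 0.00144 and 0.00336) and with Acss2 at r = 0.57 (rho = 0.47, adjusted p = 0.00547 and 0.0148). Without the 2 mice farthest from the median these were 0.54 and 0.44, and with median ratio scaling 0.55 and 0.48. Acsl3 and Acsl4 went together in both tissues, at r = 0.56 in liver and 0.53 in islets. In islets Acss2 went with Acsl3 at r = 0.58 and with Acsl6 at r = 0.54 (adjusted p = 0.00324 for each). With median ratio scaling these were 0.49 and 0.42, and islet Acsl3 with Acsl4 was 0.45. Correlations over all gene pairs of a tissue were not computed, so the part of scaling shared by the genes of a library was not tested.

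Between the tissues, liver and islet Acss2 of the same mouse were inversely related. The correlation was -0.56 (rho = -0.51, adjusted permutation p = 0.00547 and 0.00518, 48 mice), -0.45 without the 2 mice farthest from the islet median and -0.41 with median ratio scaling. Over the 9936 genes tested in both tissues the within-group correlation had a median of 0.065 and a 5th percentile of -0.25. With Acss2 itself counted, 6 genes, 0.0604%, were at or below its value. This background is that of the FPKM as deposited and was not computed with median ratio scaling. Acsl3, Acsl4 and Acsl5 had islet to liver correlations of -0.0071, 0.041 and -0.13, with adjusted p-values from 0.496 to 0.965.

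**Figure D5:**
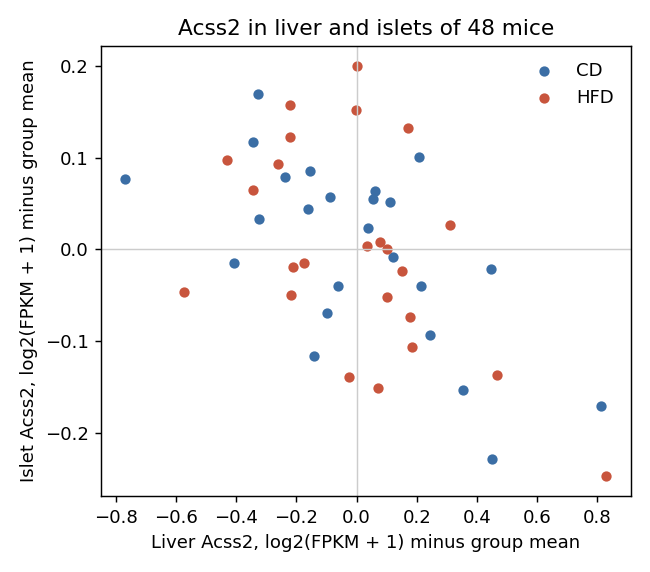
Islet against liver Acss2 in 48 mice, each as log2(FPKM + 1) minus the mean of its group of 4, with CD mice in blue and HFD mice in red. Points run from upper left to lower right (r = -0.56).

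By overall pattern, each gene had its own nearest neighbours over the 48 libraries of a tissue, given here as a description since libraries share week, diet and scaling. In liver Acsl5 was most like Sc5d, an enzyme of cholesterol synthesis, at r = 0.88 (0.88 after subtracting group means), and Acsl3 was most like the same gene at r = 0.80 (0.79). Liver Acss3 was most like Abhd3, a phospholipase (0.90 and 0.73), Hsd17b4, an enzyme of peroxisomal beta-oxidation (0.89 and 0.68), and Pdha1, a subunit of pyruvate dehydrogenase (0.88 and 0.76). Liver Acss2 was most like Pdzk1ip1 (0.88 and 0.67) and liver Acsl4 most like Fam3c (0.81 and 0.69). In islets Acsl4 was most like Arl5a and Arfgef1, which act in vesicle traffic (both 0.95, and 0.83 and 0.84 after subtracting group means), Acsl3 most like Ube2q2 (0.90 and 0.52), Acsl6 most like Sema4g (0.85 and 0.60) and Acss2 most like Chst11 (0.87 and 0.72).

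The other genes of fatty acid activation give the setting. Of 19 further acyl-CoA synthetases and fatty acid transport proteins 11 were tested in liver, where 5 were higher in HFD, 1 was lower and 5 did not pass, beside 35.8% higher and 6.78% lower of all genes, with a median of 0.17 beside 0.077 over all genes. Acsf3, the mitochondrial malonyl-CoA synthetase, had 14.7 FPKM in CD and 20.2 in HFD (0.44 ± 0.05, adjusted p = 7.97e-09), and Acsm3, a medium-chain synthetase, 30.9 and 43.4 FPKM (0.46 ± 0.07). Slc27a4 was higher by 0.26 ± 0.05, and Slc27a5, the bile acid-CoA ligase, was lower, at 410.7 and 348.5 FPKM (-0.24 ± 0.06, adjusted p = 0.00121). In islets 7 were tested and Slc27a4 (0.13 ± 0.03) and Acsf2 (0.13 ± 0.03) were higher, beside 16.6% of all genes.

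Of 17 lipogenic and sterol genes 2 were higher and 1 lower in HFD liver, beside 35.8% higher and 6.78% lower of all genes. Their median was -0.017 beside 0.077 over all genes. Srebf1, which encodes a factor that drives lipogenesis, had 48.9 FPKM in CD and 73.6 in HFD (0.65 ± 0.19, adjusted p = 0.00486), Scd2 was higher by 0.20 ± 0.06, and Sqle, an enzyme of cholesterol synthesis, had 11.1 and 5.90 FPKM (-0.97 ± 0.26, adjusted p = 0.00289). Thrsp, at 0.78 ± 0.34, did not pass (adjusted p = 0.0621). Liver Acss2, at -0.40, differed in sign from Srebf1. In islets 16 were tested and only Scd1, a fatty acid desaturase, was called, at 1.44 and 0.802 FPKM (-0.46 ± 0.07). Of all islet genes 16.6% were higher and 22.0% lower.

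Of 16 genes of polyunsaturated fatty acids and phospholipids 10 were tested in liver and 6 were higher in HFD, none lower, beside 35.8% and 6.78% of all genes, with a median of 0.22 beside 0.077. The smallest adjusted p-values were those of Gpx4, which reduces lipid peroxides (260 and 355 FPKM, 0.46 ± 0.08), Lpcat2 and Lpcat1, which rebuild phospholipids (0.27 ± 0.06 and 0.15 ± 0.04), and Fads2, a desaturase of polyunsaturated fatty acids (123 and 192 FPKM, 0.55 ± 0.15). In islets, where 11 were tested, Gpx4 was higher (0.13 ± 0.03) and Fads2 (-0.40 ± 0.07) and Ptgs1 (-0.25 ± 0.06) were lower. Of all genes there 16.6% were higher and 22.0% lower.

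Of 9 genes around propionate, the substrate of ACSS3, 6 were higher in HFD liver and none lower, beside 35.8% and 6.78% of all genes, with a median of 0.21 beside 0.077. Mmachc and Mmaa, which handle cobalamin, were higher by 0.26 ± 0.04 and 0.21 ± 0.05, and Pcca, a subunit of propionyl-CoA carboxylase, by 0.22 ± 0.05. In islets, where 16.6% of all genes were higher, 3 of the 9 were, by 0.15 ± 0.03 for Mcee, 0.085 ± 0.025 for Pcca and 0.077 ± 0.030 for Mmachc. The counts of higher genes in these lists are those of the FPKM as deposited; with median ratio scaling, which moves the split of all calls in liver as given above, they were not computed.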

How the data were processed

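RNA of islets and liver from 48 mice was sequenced on BGISEQ-500 after poly(A) selection. Values are FPKM with 2 decimals, deposited by the authors in one table; the submitters' processing notes name HISAT2 2.0.4, Bowtie2 2.2.5, RSEM 1.1.12, DESeq2 and GRCm38.p5. Group averages and the authors' comparison columns (fold changes and p-values) were not used. Read counts were not used here, so depth is unknown and no counting interval is given. Of 21990 genes, 1835 had no values.

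Tests were run with limma 3.58.1 (trend and robust variances, R 4.3.3) on log2(FPKM + 1), with Benjamini-Hochberg adjustment over all genes tested and calls at an adjusted p under 0.05. Fold changes on this scale understate those of low genes. Weekly tests compared 4 with 4 mice over genes that reached 1 FPKM in 4 or more libraries. Mean HFD effects and tests between weeks used 48 libraries of a tissue in 12 groups. Liver and islets were paired by mouse number, since both came from the same animal, and the mouse was the block through the within-mouse difference. Replicates are separate mice. Correlations and their permutations also used R 4.3.3, while Python 3.11.15 was used to read the values and draw the figures. Scripts were tested on simulated data.

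Promoters are from RefSeq (GRCm38.p6). Motifs were searched on both strands. Named genes were the 6 synthetases, up to 4 genes per list and tissue with the smallest adjusted p, and the 3 genes most correlated with each synthetase; the members and lists were chosen with earlier results of these data known. For 1 gene of these lists the values are not reported here. Alternatives were a pseudocount of 0.1, no filter, median ratio scaling, totals without Ins1 and Ins2, plain variances, a single fit of 48 libraries, no mouse block, leaving out each mouse, and FPKM divided by the library's FPKM sum, the last chosen after seeing the data.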

Additional observations from a re-analysis of the deposited data

Results flagged for a closer look

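Dixon's test was run on 120 sets of 4 values, each 1 gene in 1 of the 24 groups, at a mean of at least 1 FPKM. In 14 of these sets 1 mouse stood far from the other 3, and the 14 were different mice. Chance gives about 1 in 20 for unrelated sets, but these sets share mice between genes and tissues. For Acsl4 in islets these were CD405 at week 16 (10.41 FPKM, others 8.88 to 9.13) and HFD211 at week 8 (10.41, others 8.12 to 8.32). For Acsl4 in liver they were HFD212 at week 8 (8.80, others 5.35 to 5.85) and HFD411 at week 16 (5.25, others 8.53 to 8.82).

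For Acsl5 the mice were HFD118 in islets at week 4 (29.31 FPKM, others 13.81 to 15.36) and HFD616 in liver at week 24 (95.57, others 70.48 to 73.16). For Acsl6 in islets they were HFD315 at week 12 (5.01, others 6.31 to 6.55) and HFD511 at week 20 (6.91, others 8.14 to 8.18).

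For Acss2 they were CD106 (9.88 FPKM, others 12.21 to 12.67) and CD608 (10.75, others 12.37 to 12.66) in islets at weeks 4 and 24, and CD304 (53.62, others 23.53 to 27.21) and HFD316 (26.93, others 39.29 to 41.53) in liver at week 12. For Acss3 in liver they were CD307 at week 12 (0.71, others 1.42 to 1.51) and HFD217 at week 8 (3.47, others 6.31 to 6.87).

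The HFD effect differed between liver and islets by the within-mouse test for 4 of the 6 genes. The liver minus islet difference was 0.28 for Acsl4, -0.16 for Acsl6, -0.58 for Acss2 and 0.73 for Acss3 on the log2 scale.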

How the results depend on the processing

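Without the mouse block, the liver to islet comparisons called the same numbers, 6 in CD, 6 in HFD and 4 for the difference of the HFD effect, and the block changed no other call. Weekly islet calls, 2 as reported, became 4 with median ratio scaling, 11 without Ins1 and Ins2 in the total, 1 with plain variances, 1 with FPKM divided by the library sum and 4 in a single fit of 48 libraries. Leaving out 1 mouse gave 1 to 4 weekly calls in islets and 2 to 7 in liver. Mean islet effects called, 3 as reported, became 4 with median ratio scaling, 5 without the insulin genes and 0 with division by the sum, and mean liver effects, 3 as reported, became 4 with no filter (Acsl6 in addition) and were 3 in the other alternatives run. Effects differing between weeks in islets became 1 with no filter and 2 without the insulin genes; in liver, leaving out 1 mouse gave 0 to 2. Week differences called in CD islets became 5 without the insulin genes.

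Division by the sum turned the sign of islet differences for Acsl3 (-0.079), Acsl4 (-0.15) and Acsl6 (-0.048) at week 12, for Acsl4 at week 16 (-0.083) and for the mean of Acsl4 (-0.031). Islet Acsl5 turned positive without the insulin genes at week 12 (0.45), week 16 (0.31) and in the mean (0.17), and with median ratio scaling at week 16 (0.0018) and in the mean (0.020). Over the libraries left out in turn, islet week 12 differences ran from -0.025 to 0.14 for Acsl3, from -0.058 to 0.11 for Acsl4 and from -0.098 to 0.0081 for Acsl5. Islet Acsl5 ran from -0.084 to 0.015 at week 16 and from -0.052 to 0.0051 in the mean, and the Acsl3 HFD effect difference between tissues from -0.058 to 0.030. That difference was 0.10 with division by the sum, and that of Acsl5 -0.026 without the insulin genes. Liver against islets turned for Acsl4 with median ratio scaling (0.18 in CD, 0.34 in HFD) and with division by the sum (0.12 and 0.54), and without the insulin genes for Acsl3 (-0.77 and -0.98) and for Acss2 in HFD (-0.55). The cause of these turns was not tested. Depth is unknown, so its limit on low values such as islet Acss3 could not be set.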
